A study of Mus musculus with 8 samples.

Results

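The genes described here mark the endothelial cells of brain vessels and the blood-brain barrier they form. The set comprised 10 genes: Cldn5, Cdh5, Pecam1, Kdr, Flt1, Tek, Slco1c1, Abcb1a, Slc2a1 and Vwf. They were chosen by name, with earlier results of these data known, and the rule used no measured value. A probe annotated to exactly 1 gene was found for 9 of them, out of 13840 genes with such a probe on the array. No probe listed here named Flt1 alone, so Flt1, a receptor for vascular endothelial growth factor (VEGF), has no value below.

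Transcript levels were measured in the hypothalamus of male mice of the inbred C57BL/6J strain that gained much weight (high gainers) or little weight (low gainers) on one diet scheme. All mice had a high-fat diet for 6 weeks, a low-fat diet for 2 weeks and the high-fat diet for 6 more weeks. In the study's account of such a scheme, the low-fat diet was given in an amount restricted below each mouse's earlier intake. The labels give no age, and the methods start the high-fat diet in young adult mice. RNA of 20 mice was pooled per group, and 4 one-colour arrays were run from each of the 2 pools, which makes the arrays of a group technical replicates of 1 pool. Every p-value below therefore sets the difference between 2 pools against the spread between arrays and says nothing about how mice vary. The comparison asks whether the hypothalamus of genetically alike mice differs with the weight they gain.

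Endothelial cells of most brain vessels are sealed to each other by tight junctions and carry a dense set of transporters, so that nutrients enter by carriers and many foreign compounds are pumped back to the blood. Growth of these vessels is driven by VEGF and angiopoietin receptors, and the barrier itself is induced by Wnt signals from neural tissue. The hypothalamus adjoins the median eminence, where capillaries are fenestrated and the barrier is open. In bulk tissue, fewer endothelial cells and less RNA per endothelial cell cannot be told apart.

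Low gainer array 2 stood apart from the others before any comparison was made. Across the 5375 probes that all 8 arrays measured, its log2 intensities correlated with those of the other arrays at an r between 0.227 and 0.241, while the other 7 arrays correlated with each other at an r between 0.949 and 0.990. Ttr, the choroid plexus carrier of thyroxine, had 0.673 on low gainer array 2 and 257 to 391 on the others, while Dcn had 83.2 on it and 3.98 to 4.96 elsewhere. Whether each value of that array belongs to the gene named in its row is therefore in doubt. Its values are given apart below, as listed, and high gainer arrays 1 to 4 were compared with low gainer arrays 1, 3 and 4. The share of probes naming 1 gene that had a value was 42.5% on low gainer array 2 and between 51.2% and 62.5% on the other arrays.

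Not all endothelial markers were measurable in this tissue. Of the 9 genes with a probe, 4 had a value on all 7 arrays compared (Cldn5, Kdr, Abcb1a and Slco1c1), and 4 had a value on some of them (Pecam1, Slc2a1, Tek and Cdh5). Vwf had no value on any of the 8 arrays. For reference, 43.9% of the 14411 probes naming 1 gene had a value on all 7 arrays and 21.4% on none. Cdh5 and Vwf, among the most endothelium-restricted genes of the set, thus had few values or none, and the values below come mainly from junction, receptor and transporter genes. High gainer arrays 1 to 4 returned values for 7, 6, 7 and 4 of the 9 genes, and low gainer arrays 1, 3 and 4 for 5, 4 and 7. Low gainer array 2 returned values for 3.

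**Figure D1:**
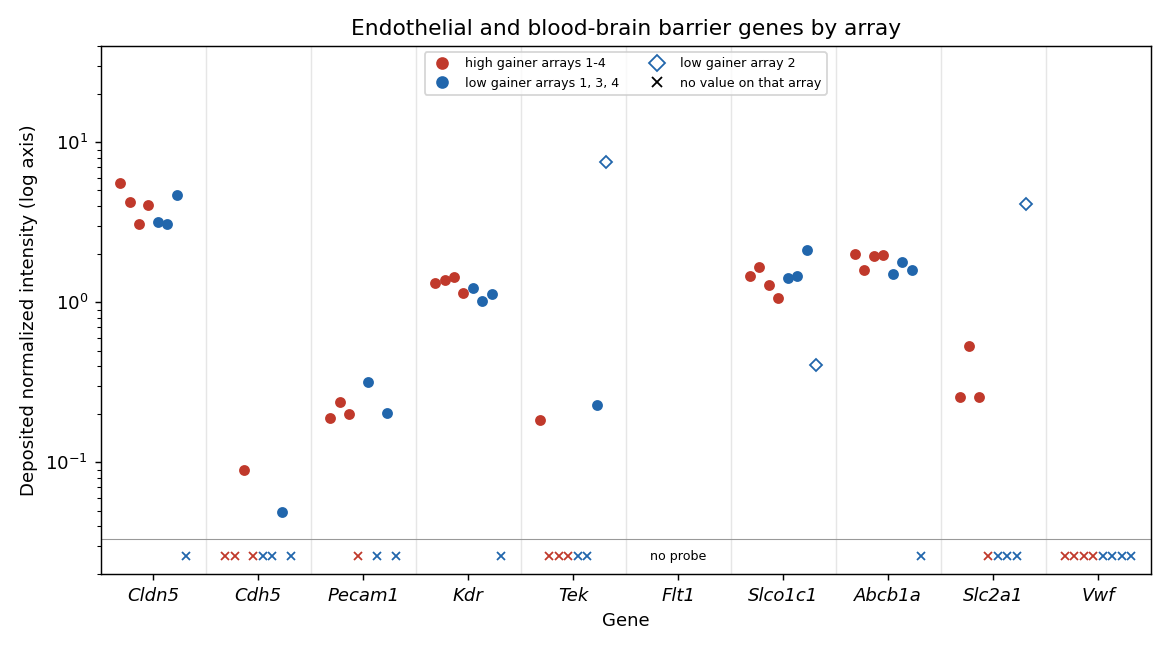
Normalized intensity as deposited (log axis) of each gene, with 1 point per array, high gainer arrays in red, low gainer arrays 1, 3 and 4 in blue, low gainer array 2 as an open diamond, and crosses in the bottom strip where an array had no value. Cldn5, Kdr, Slco1c1 and Abcb1a carry 7 filled points each, the red and blue points of each gene overlap, and the open diamonds of Tek and Slc2a1 lie far above their filled points.

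None of the endothelial and barrier genes was called different between the pools. Of the 4 genes tested, limma called 0 at an adjusted p of 0.05, where 0.0269% of all 11169 probes tested were called in either direction. At an unadjusted p under 0.05, limma gave 0 of the 4 genes, against 6.48% of all probes. The limits of the study's methods, a 1.5-fold difference at an unadjusted p of 0.01, were applied here to the limma values. They were passed by 0 of the 4 genes and 1.03% of all probes. The groups of arrays overlapped for all 4 genes, whereas they did not overlap for 4.77% of all probes. Differences below are log2 differences of quantile-normalized intensities, high gainers minus low gainers, with 95% confidence intervals. The difference was above 0 for 3 of the 4 genes, against 49.6% of all probes, and the median over the 4 genes was 0.21, against -0.0024 over all probes. With 4 genes, neither the count nor the median sets the list apart from the other probes.

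Among junction genes, Cldn5 encodes the main claudin of brain endothelial tight junctions. Its deposited intensity was 5.55, 4.22, 3.09 and 4.07 on high gainer arrays 1 to 4, and 3.19, 3.08 and 4.69 on low gainer arrays 1, 3 and 4. High gainer array 1 was the highest and low gainer array 4 the next, while high gainer array 3 lay with the 2 lower low gainer arrays. The log2 difference was 0.21, with an interval from -0.25 to 0.67 and an adjusted p of 0.900 by limma. As a fold of high over low gainers, the interval ran from 0.842 to 1.59. The difference rested in part on single arrays, being 0.08 without high gainer array 1, 0.11 without low gainer array 3, 0.13 without low gainer array 1, 0.34 without high gainer array 3 and 0.40 without low gainer array 4. Low gainer array 2 had no Cldn5 value.

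Cdh5, the cadherin of endothelial adherens junctions, had a value on 2 of the 7 arrays, 0.0891 on high gainer array 3 and 0.0493 on low gainer array 4. Both values were below the 10th percentile of all values on their arrays, which was 0.214 and 0.143. Pecam1, an adhesion molecule of endothelial junctions that platelets and leukocytes also carry, had 0.190, 0.237 and 0.200 on high gainer arrays 1 to 3. On low gainer arrays 1 and 4 it had 0.319 and 0.204, and no value on high gainer array 4 or low gainer array 3. These dim values overlapped as deposited. When probes with missing values were allowed, the log2 difference of Pecam1 was -0.55, with an interval from -1.39 to 0.28 and an adjusted p of 0.940 by limma over 14082 probes. Of those probes, 0.0213% were called. After quantile normalization all 3 high gainer values of Pecam1 lay below both low gainer values, as the arrays of 4.59% of these probes did. Most of these probes, 11169, had a value on all 7 arrays, and in the 7-array fit 2.70% of those separated this way. Separation is easier to reach with 3 values against 2, so 4.59% is not the rate for probes measured as sparsely as Pecam1.

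Among receptors, Kdr encodes the main signalling receptor for VEGF on endothelial cells. Its deposited intensity was 1.31, 1.37, 1.44 and 1.14 on high gainer arrays 1 to 4, and 1.22, 1.02 and 1.12 on low gainer arrays 1, 3 and 4. Only high gainer array 4 lay within the low gainer range, so the overlap between the pools came from that single array. The log2 difference was 0.21, with an interval from -0.21 to 0.63 and an adjusted p of 0.882 by limma. As a fold the interval ran from 0.865 to 1.55. Tek, the angiopoietin receptor that keeps vessels quiescent, had 0.184 on high gainer array 1 and 0.228 on low gainer array 4, and no value on the other 5 of the 7 arrays. No difference was computed for Tek, since each pool had 1 value.

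Among transporters, Abcb1a encodes the P-glycoprotein pump that returns drugs and toxins to the blood. Its deposited intensity was 2.00, 1.60, 1.96 and 1.97 on high gainer arrays 1 to 4, and 1.49, 1.77 and 1.59 on low gainer arrays 1, 3 and 4. High gainer array 2 fell among the low gainer arrays, and the other high gainer arrays lay above all of them. The log2 difference was 0.21, with an interval from -0.21 to 0.63 and an adjusted p of 0.881 by limma. It was 0.31 without high gainer array 2. This gene varied the least over the 7 arrays, with a highest value 1.34 times the lowest, compared with 1.42 for Kdr, 1.80 for Cldn5 and 2.01 for Slco1c1.

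Slco1c1 encodes a carrier that brings thyroxine across the barrier, and the choroid plexus uses it as well. Its deposited intensity was 1.46, 1.66, 1.28 and 1.06 on high gainer arrays 1 to 4, and 1.43, 1.47 and 2.12 on low gainer arrays 1, 3 and 4. The highest value was on low gainer array 4 and the 2 lowest on high gainer arrays 3 and 4, with the other arrays of both pools intermixed. The log2 difference was -0.30, the only negative one among the 4 genes tested, with an interval from -0.75 to 0.15 and an adjusted p of 0.843 by limma. It was -0.16 without low gainer array 4 and -0.20 without high gainer array 4. With low gainer array 2 included, Slco1c1 was the only gene of the set with a value on all 8 arrays, and the sign turned, at 0.040 with an interval from -0.85 to 0.93. The value listed for it on that array was 0.404, below all the others, and both this value and the turned sign carry the doubt over that array's rows. Choroid plexus markers were measured beside it. Of 10 such genes 7 had a probe and 6 were tested, with a median log2 difference of -0.23, 5 of them below 0 and none called by limma. Summed over these 6, the intensity was 275 to 315 in the high gainer pool and 303 to 406 in the low gainer pool. Most of this sum was Ttr alone, at 257 to 296 against 284 to 391. Sostdc1, the next brightest, was the gene above 0, at 0.35. The part of the choroid plexus in the Slco1c1 value was not tested.

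Slc2a1, the glucose transporter of the barrier that astrocytes also express, had 0.255, 0.535 and 0.257 on high gainer arrays 1 to 3. It had no value on high gainer array 4 or on low gainer arrays 1, 3 and 4. Of 886 probes naming 1 gene with a value on exactly 3 high gainer arrays, 5.87% likewise had no value on any of these low gainer arrays. Why a cell of the deposited table is empty is not stated in the sources used here, so the missing values give no bound on the level and no fold was computed. Red cell transcripts were measured beside it. The 3 red cell genes tested summed to an intensity of 8.94 to 14.8 in the high gainer pool and 18.4 to 37.2 in the low gainer pool. Most of this sum was Hba-a1 alone, at 8.11 to 13.9 against 17.0 to 35.8. None of the 3 red cell genes was called by limma, against 0.0269% of all probes tested. The arrays of the pools did not overlap for 2 of the 3, lower in high gainers, compared with 2.70% of all probes. An unadjusted p under 0.05 by limma was reached by 2 of the 3, against 6.48% of all probes. Whether red cells had a part in the Slc2a1 values was not tested.

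**Figure D2:**
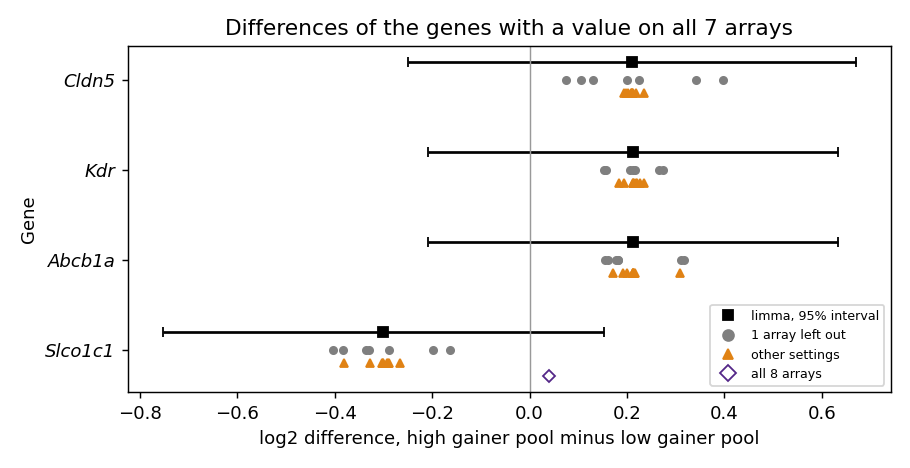
Log2 difference, high gainer pool minus low gainer pool, of the 4 genes with a value on all 7 arrays. Black squares with bars are the limma values with 95% intervals, grey circles the values with 1 array left out, orange triangles those under other settings and the open diamond the value over all 8 arrays. Every interval crosses 0, Cldn5 runs from 0.08 to 0.40 as single arrays are left out, and only Slco1c1 over all 8 arrays changes sign.

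The 4 genes did not share one pattern over the arrays. Cldn5 deviated most from its own mean on high gainer array 1, by 0.50 on the log2 scale, Kdr on high gainer array 3, by 0.27, and Slco1c1 on low gainer array 4, by 0.45. On low gainer array 4, Cldn5 and Slco1c1 lay above their means, by 0.25 and 0.45, while Kdr and Abcb1a lay below theirs, at -0.23 and -0.24. On high gainer array 1, Cldn5, Kdr and Abcb1a were all above their means, by 0.50, 0.09 and 0.18, and Slco1c1 was at -0.02. Arrays of 1 pool thus differed from each other by as much as the pools did.

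**Figure D3:**
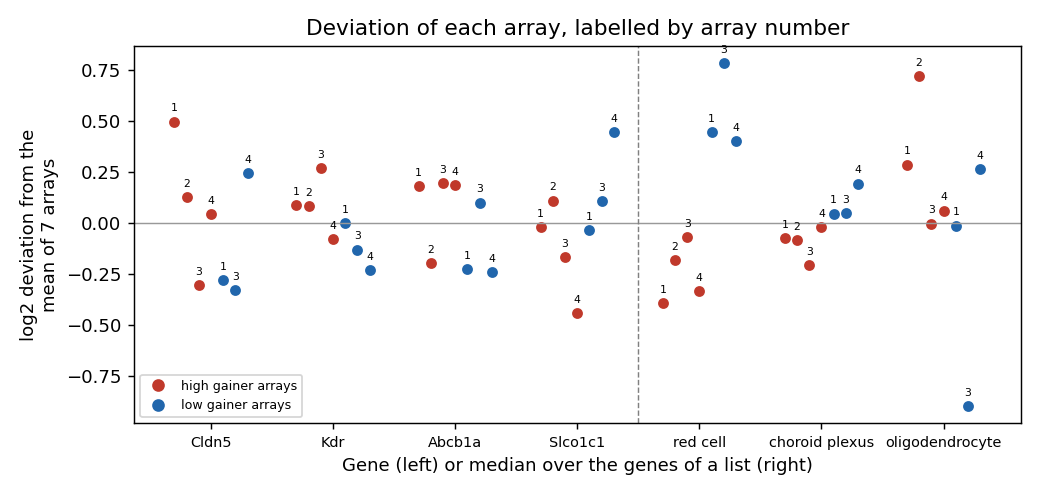
Log2 deviation of each array from the mean of 7 arrays for Cldn5, Kdr, Abcb1a and Slco1c1, and, right of the dashed line, the median deviation over the tested genes of the red cell, choroid plexus and oligodendrocyte lists. High gainer arrays are red and low gainer arrays blue, each numbered. The colours intermix for the 4 genes on the left, and separate for the red cell list, from -0.39 to -0.07 in red and from 0.40 to 0.78 in blue.

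Further genes of the vessel wall and its signals were read from 9 lists of 161 genes in all, none of them among the 10 above. A probe was found for 142 and 65 were tested. Of these 65, limma called 0 in either direction. An unadjusted p under 0.05 by limma was reached by 6 of them, against 6.48% of all probes tested. The plain per-probe test named in the methods, at an adjusted p of 0.05, called 0 of them. It called 0 of all 11169 probes as well, so that count says nothing about these genes. The difference was above 0 for 31 and below 0 for 34, with a median of -0.02. The arrays of the pools did not overlap for 1 gene on the higher side and 2 on the lower side, compared with 2.07% and 2.70% of all probes.

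Other tight junction genes centred on no difference, with 6 of 15 tested and a median log2 difference of 0.01. Lsr, which organises junctions where 3 cells meet, had 4.73 ± 0.787 (SD, n = 4) in the high gainer pool against 3.64 ± 0.869 (SD, n = 3) in the low gainer pool. Its log2 difference of 0.40 had a limma adjusted p of 0.766. Esam, an endothelial adhesion molecule, had -0.22, Jam3 0.19 and F11r, another junctional adhesion molecule, -0.08. None of these 4 intervals left out 0.

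Of 17 further transporter and uptake genes 10 were tested, with a median log2 difference of 0.11. Slc38a3, a glutamine carrier, had 0.487 ± 0.169 (SD, n = 4) against 0.269 ± 0.114 (n = 3), at 0.80 on the log2 scale (interval from 0.06 to 1.53). Mfsd2a, a lipid carrier of brain endothelium that limits transcytosis, had 5.74 ± 0.398 (SD, n = 4) against 5.13 ± 0.292 (n = 3). Its arrays did not overlap after quantile normalization, at a log2 difference of 0.17, although high gainer array 3 at 5.31 was below low gainer array 1 at 5.42 as deposited. Lrp1, a lipoprotein receptor, was at 0.29 and Slc6a6, the taurine carrier, at 0.50. For these 4 genes limma gave an adjusted p from 0.756 to 0.883.

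Of 30 other endothelial genes 12 were tested, 6 above and 6 below 0, with a median log2 difference of 0.06. Ptprb, the phosphatase that dampens Tek signalling, had 3.25, 1.91, 2.17 and 2.07 on high gainer arrays 1 to 4 and 2.10, 1.33 and 1.53 on low gainer arrays 1, 3 and 4. Its log2 difference was 0.48, with an interval from -0.01 to 0.97 and an adjusted p of 0.756 by limma. Car4, a carbonic anhydrase on the capillary surface, was at -0.31, Ly6c1, a surface protein of brain endothelium, at -0.19, and Pltp, a phospholipid transfer protein, at 0.30. Tie1, the orphan partner receptor of Tek, had no value on any of the 7 arrays.

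Most ligands, receptors and targets of vessel growth lacked a value on some array and were not tested. Of 23 genes with a probe, 6 had a value on all 7 arrays and 10 on none, among them the angiopoietins Angpt1 and Angpt2, the lymphatic VEGF receptor Flt4 and the pericyte-recruiting factor Pdgfb. The median log2 difference of the 6 was -0.10. Nrp2, a VEGF co-receptor, had 0.279, 0.306, 0.294 and 0.337 on high gainer arrays 1 to 4 and 0.437, 0.315 and 0.386 on low gainer arrays 1, 3 and 4. After quantile normalization its high gainer arrays all lay below its low gainer arrays, at -0.41 on the log2 scale, with an interval from -0.95 to 0.14 and an adjusted p of 0.811 by limma. Bmpr2, a receptor for bone morphogenetic proteins, was at 0.47, and the Notch targets Hes1 and Hey1 at -0.39 and 0.21.

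In the Wnt pathway that induces the barrier, 7 of 15 genes were tested, with a median log2 difference of 0.03. Lef1, a transcription factor that carries out the Wnt response, had the smallest unadjusted p of the 65 vessel genes by limma, 0.0131. Its intensity was 1.24, 1.02, 0.894 and 0.620 on high gainer arrays 1 to 4 and 0.460, 0.404 and 0.765 on low gainer arrays 1, 3 and 4. High gainer array 4 lay below low gainer array 4, and the other high gainer arrays lay above all 3 low gainer arrays. The log2 difference was 0.77, with an interval from 0.19 to 1.35 and an adjusted p of 0.750 by limma. Tspan12, a Norrin co-receptor component, was at 0.37, Adgra2, an endothelial receptor of the Wnt7 response, at -0.56, and Ctnnb1, beta-catenin, at 0.16. No gene of this pathway passed.

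Genes of endothelial adhesion and clotting gave 4 tested of 13, with a median log2 difference of -0.11. Pdpn, a sialoglycoprotein of lymphatic endothelium, was at 0.73 (interval from 0.01 to 1.45), and Thbd, the anticoagulant thrombomodulin, at -0.43. Plat, the tissue plasminogen activator, was at -0.29 and Alcam, a leukocyte adhesion molecule, at 0.07. Their adjusted p by limma ran from 0.756 to 0.982.

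Outside the endothelium, 5 of 18 mural cell genes were tested, with a median log2 difference of 0.07. Rgs5, a pericyte marker, had 0.508 ± 0.0644 (SD, n = 4) in high gainers against 0.750 ± 0.237 (n = 3) in low gainers. The log2 difference was -0.57, at a limma adjusted p of 0.756. Kcnj8, a pericyte potassium channel subunit, pointed the other way at 0.38, Vtn, vitronectin, was at 0.50 and Foxf2, a transcription factor of brain pericytes, at 0.07. Abcc9, Anpep, Des and Myh11 had no value on any of the 7 arrays.

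Basement membrane genes had 9 of 18 tested, 7 of them below 0 (5627 of all 11169 probes were), with a median log2 difference of -0.13. Col4a2, a chain of the vascular collagen network, had 0.790 ± 0.173 (SD, n = 4) against 1.16 ± 0.220 (n = 3), at a log2 difference of -0.59. The interval ran from -1.14 to -0.04, with an adjusted p of 0.756 by limma. Its partner chain Col4a1 was at -0.13, Lamb1 and Lamb2, laminin chains, at -0.43 and -0.15, and Fn1, fibronectin, at -0.25. Of 12 perivascular fibroblast genes 6 were tested, with a median of -0.19. Mgp, an inhibitor of calcification, had 2.35, 3.18, 3.02 and 2.56 on high gainer arrays 1 to 4 and 3.37, 5.63 and 3.85 on low gainer arrays 1, 3 and 4, so its arrays did not overlap. Its log2 difference was -0.58, with an interval from -1.02 to -0.14 and an adjusted p of 0.750 by limma. Ptgds, a prostaglandin synthase of meninges and oligodendrocytes, was at -0.39, with an interval from -0.74 to -0.03 and an adjusted p of 0.756 by limma. Col3a1 was at -0.26 and Dcn, decorin, at -0.12.

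**Figure D4:**
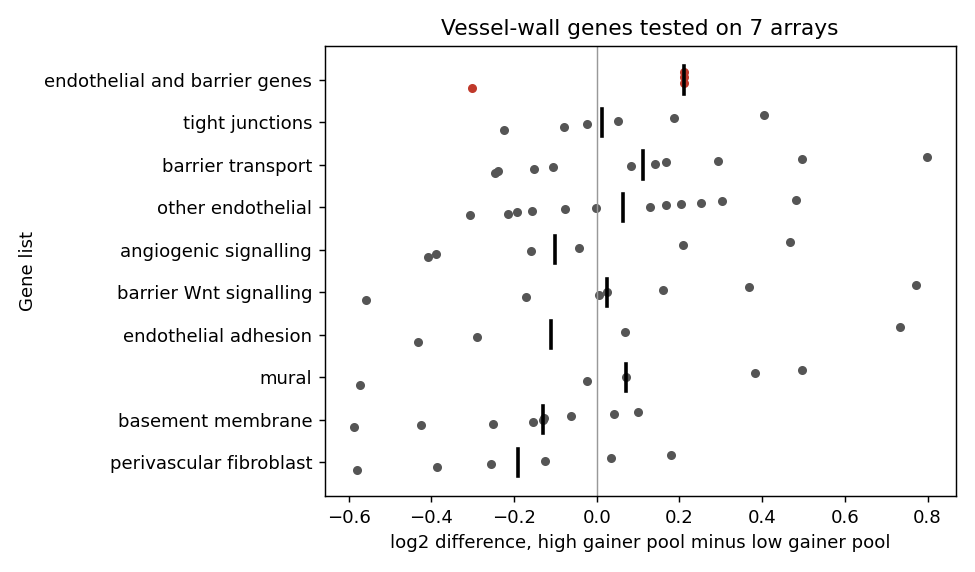
Log2 difference, high gainer pool minus low gainer pool, of each gene tested on 7 arrays, by list, with the endothelial and barrier genes in red, other vessel genes in grey and the median of a list as a black bar. Medians of the lists other than the red one lie between -0.19 and 0.11, and no gene shown passed an adjusted p of 0.05 by limma.

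Other cell types of the dissected region were read beside these genes. The 3 probes called by limma over the whole table, Gh, Cga and Prl, belong to the pituitary list, of which 4 of 17 genes were tested, with a median log2 difference of 2.78. The fold of Gh, high gainers over low gainers, was 11.2. With Chga, the brightest of the 4, included, they summed to an intensity of 52.1 to 56.0 in the high gainer pool and 29.1 to 41.0 in the low gainer pool. The pituitary markers Ghrhr, Pitx1 and Trhr had no value on any of the 7 arrays. Oligodendrocyte genes, with 8 of 13 tested and all 8 differences above 0, ran from 92.2 to 117 against 43.0 to 78.5 in summed intensity. None of the 8 was called by limma. Mbp, the brightest, had 42.1 to 66.7 against 9.68 to 36.1 within these sums. The arrays of the pools did not overlap for 2 of the 8 genes, against 2.07% of all probes on the higher side. The median deviation of the list was -0.90 on low gainer array 3. It was -0.01 and 0.26 on low gainer arrays 1 and 4, within the high gainer range or close to it, which ran from -0.002 to 0.72. Astrocyte, neuron and microglia lists had medians of -0.04, 0.04 and 0.07. The part of these cell types in the values of the endothelial genes was not tested.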

How the data were processed

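Hypothalamus RNA pools of high and low gainers were hybridised to Applied Biosystems mouse genome arrays read by chemiluminescence. The authors deposited intensities on a linear scale, which the methods say were quantile-normalized. The arrays as deposited did not share one distribution, so log2 intensities were quantile-normalized again over the 11169 probes measured on all 7 arrays compared. Groups came from the labels. limma 3.58.1 in R 4.3.3 (lmFit, then eBayes with the prior variance following intensity) was fitted on all these probes, with Benjamini-Hochberg adjustment over all of them. The number of arrays limits the precision. Platform annotation named 1 gene for 14411 of 33012 probes, 14402 of which matched RefSeq (GRCm38.p6) by gene identifier, and probes naming several genes were left out. The brightest probe stood for a gene with several probes. The genome build behind the array is not given in the sources used here. Coordinates are therefore left out.

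The genes, the lists, the 7 arrays and the tests were chosen with earlier results of these data known. The genes named are the 10 listed, up to 4 per vessel list with the smallest p by limma, and the called probes. The rule also took the 2 brightest genes of each other cell type list, which are summarised with their list. Genes named for having no value, Col4a1, and Ttr and Dcn as examples on low gainer array 2 were chosen after values were seen. Alternatives were median centring, cyclic loess, no further normalization, the brightest 50% of probes, a pseudocount of 0.186 (the 10th percentile of all values), missing values allowed with at least 2 arrays per pool, array weights, a prior variance without trend, the replicate number as a block, the methods' plain test per probe (analysis of variance), all 8 arrays and leaving out each array. The procedure was tested on simulated data.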

Additional observations from a re-analysis of the deposited data

Results flagged for a closer look

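Abcb1a had an intensity of 1.60 on high gainer array 2, apart from the other 3 high gainer arrays, which lay between 1.96 and 2.00, and its log2 difference was 0.31 without that array. Nrp2 had 0.337 on high gainer array 4, against 0.279 to 0.306 on the other 3. The gap to the nearest array was 0.964 of the group's range for Abcb1a and 0.965 for Nrp2 on the normalized log2 scale, more than Dixon's limit for 4 arrays. These were 2 of 40 genes examined, and chance alone marks about 1 in 20.

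On low gainer array 2, which entered no comparison, the row of Tek held an intensity of 7.55, against 0.184 and 0.228 on the 2 other arrays with a value. The row of Slc2a1 held 4.13 on that array, against 0.255 to 0.535 on 3 high gainer arrays. These values are 33.1 and 7.72 times the highest value elsewhere. Since the array did not follow the others probe by probe, they may not be levels of Tek and Slc2a1.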

How the results depend on the processing

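Under the 17 alternatives that left out low gainer array 2, all 66 values of Cldn5, Kdr, Abcb1a and Slco1c1 kept their direction and none passed the threshold, with a lowest adjusted p of 0.386 by limma, for Slco1c1 without low gainer array 1. The brightest 50% of probes kept only Cldn5 and Abcb1a. With all 8 arrays only Slco1c1 could be tested, and its log2 difference, which is then also the median, turned to 0.040, a value that rests on the doubtful rows of low gainer array 2. The median of the 4 genes ran from 0.13 to 0.21 as single arrays were left out, lowest without high gainer array 1. The 65 other vessel genes had 0 calls throughout. Of their lists, 24 genes could be tested among the brightest 50% of probes, 31 with all 8 arrays and 85 with missing values allowed. An unadjusted p under 0.05 by limma was reached by 0 to 13 of the 65 with 1 array left out. It was 0 without low gainer array 3, where 239 of all 11169 probes reached it. It was 13 without low gainer array 1, where 1910 of all probes did, so the swing ran over the whole table.

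Over the whole table, 3 probes were called by limma, 1 among the brightest 50% of probes, 1 with all 8 arrays and 0 by the methods' plain test, where 477 had an unadjusted p under 0.05. Leaving out single arrays gave 2 to 171 calls, 171 without low gainer array 1. With the replicate block 9 were called, 5 higher and 4 lower, and the median of the 4 genes was 0.21. Deviations of same-numbered arrays from their pool means correlated at an r of -0.20, 0.13 and -0.14 for numbers 1, 3 and 4. Other pairs ran from -0.52, for high gainer array 3 with low gainer array 4, to 0.45, for high gainer array 3 with low gainer array 1. Deviations taken within so few arrays depend on each other, so these values cannot tell whether any arrays were processed together. Cdh5, Tek, Slc2a1 and Vwf had too few values to be tested under any setting.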
